A study of Homo sapiens with 6 samples.

Results

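Interferon-stimulated genes and RNA sensors were examined as 37 named genes, given by symbol with earlier results of these data known and by no threshold on their values, out of 58219 genes counted. They comprised 4 IFIT genes, 10 genes of OAS, MX and other antiviral effectors, 5 IFI genes, 4 membrane restriction factors, 5 genes of the ISG15 system, 3 RNA sensors with the adaptor MAVS, and 5 transcription factors. All 37 were found in the annotation, and 28 had enough reads to be tested. U2OS, a human osteosarcoma cell line, had received either an shRNA against E4F1 or a scramble shRNA, with 3 libraries per group (3 E4F1 shRNA, 3 control). The E4F1 protein binds DNA through zinc fingers and also has ubiquitin ligase activity. In both groups cells were infected for 24 h, selected in puromycin for 48 h and sequenced as polyadenylated RNA 72 h after infection, in 3 independent pools of cells. Both groups thus went through infection with a hairpin and selection. Uninfected cells were not analysed here, and the labels do not say whether the pools of a group received the same hairpin.

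Cytosolic helicases such as RIG-I, encoded by DDX58, and MDA5, encoded by IFIH1, bind double-stranded or uncapped RNA and signal through the mitochondrial adaptor MAVS to the transcription factors IRF3 and IRF7, which switch on interferon genes. Secreted interferon acts through its receptor on a complex that contains STAT2 and IRF9, which binds the interferon-stimulated response element and raises the transcription of many antiviral genes. Short hairpin RNAs are double-stranded and can act on these sensors, and many of the genes also have a level without interferon, set by unphosphorylated STAT proteins and by IRF factors.

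The element has as its core the letters GAAA, then any 2 bases, then GAAA again. This core was searched on both strands of RefSeq promoter windows reaching from 250 bases before to 50 bases after an annotated start (GRCh38.p14); no other motif was searched, and matches could overlap. A window existed for 29 of the 37 genes, and 18 of these (62.1%) held the core, against 1195 of 27305 genes with a window (4.38%). The stretches below are shown because they give the shared element in genes whose levels went different ways: IFIT1 and IFI44L were higher and IFI6 and IFITM3 lower in E4F1 shRNA cells, while ISG15, IFIT5 and SAMD9 did not pass the test. Each runs 5′ to 3′ on the strand of its gene, with the core in capitals, read as TTTC, 2 bases and TTTC where it lies on the other strand.
IFIT1, chr10:89392497-89392526, plus strand: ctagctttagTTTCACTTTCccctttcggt
IFI44L, chr1:78620365-78620394, plus strand: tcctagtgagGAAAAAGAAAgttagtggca
IFI6, chr1:27672288-27672317, minus strand: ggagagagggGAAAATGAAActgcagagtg
IFITM3, chr11:320876-320905, minus strand: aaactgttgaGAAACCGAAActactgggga
ISG15, chr1:1013380-1013409, plus strand: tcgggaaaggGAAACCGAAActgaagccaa
IFIT5, chr10:89414513-89414542, plus strand: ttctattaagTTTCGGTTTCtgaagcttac
SAMD9, chr7:93118096-93118125, minus strand: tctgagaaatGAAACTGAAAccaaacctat
By outcome of the test, the core stood in 2 of 4 windows of genes that were higher, in 2 of 4 windows of genes that were lower, and in 10 of 15 windows of tested genes that did not pass. HERC6, MAVS, SAMD9L and STAT2, which passed the test, had no match in these windows, and IFITM2, which also passed, had no window. The stretch shown for IFI44L stands at 2 places in its window, the other at chr1:78620274-78620303.

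The libraries held 16159934 to 16892139 reads in genes in E4F1 shRNA cells and 14947085 to 16284450 in control cells. E4F1 itself had 51, 53 and 41 reads in E4F1 shRNA libraries 1 to 3, against 233, 286 and 297 in control libraries 1 to 3 (log2 fold change −2.57, SE 0.14, edgeR adjusted p = 7.66e-10). On the first principal component the E4F1 shRNA libraries lay at 17.5 to 22.7 and the controls at −31.1 to −9.85, with control library 2 the nearest to the E4F1 shRNA libraries. Markers of the mesenchymal line summed to 5541 to 5725 reads per 1000000 reads in genes (CPM) in E4F1 shRNA libraries and to 6085 to 6291 CPM in control libraries, and VIM, COL1A1 and COL5A1 among them were lower in E4F1 shRNA cells. Leukocyte markers summed to 15.4 to 17.5 CPM over 10 genes in E4F1 shRNA libraries and to 18 to 23.3 CPM in control libraries. CD3E had no read in any library, while ITGAM and IRF8 were lower in E4F1 shRNA cells. Epithelial markers summed to 14.7 to 16.8 CPM in E4F1 shRNA libraries and 14.3 to 15.9 CPM in control libraries, with EPCAM higher (log2 0.43, edgeR adjusted p = 0.0229) and CDH1 lower (log2 −0.41, edgeR adjusted p = 0.0442) in E4F1 shRNA cells. Endothelial markers summed to 10.3 to 11.98 CPM in E4F1 shRNA libraries and 9.71 to 11.7 CPM in control libraries. The part of these differences in the results was not tested.

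Of the 28 genes tested, 4 were higher in E4F1 shRNA cells (IFIT1, IFI44L, HERC6 and MAVS) and 5 were lower (SAMD9L, IFITM2, IFI6, IFITM3 and STAT2), at an adjusted p under 0.05 in edgeR's quasi-likelihood test with Benjamini-Hochberg adjustment over all genes. That is 32.1% of the genes tested, against 28.9% of all 15765 genes tested, and 14.4% of all genes were called in each direction. The share called is near that of all genes. Without control library 2, 3 genes were higher and 6 lower, IFI44L and IFI6 being lost and SAMD9 and DDX58 gained. Over all genes, leaving out that library gave 2833 higher and 2537 lower, against 2274 and 2276 with all libraries. The count of 4 higher came to 2 without the third control, the second E4F1 shRNA or the third E4F1 shRNA library, and that of 5 lower came to 3 without the second E4F1 shRNA library. All 9 changes were smaller than 2-fold. The median log2 fold change was −0.09 over the 28 genes and −0.0096 over all genes, and 11 of the 28 values were positive and 17 negative. The groups did not overlap for 6 genes higher and 7 genes lower in E4F1 shRNA cells, where 20.7% and 21.1% of all genes lay that way and 41.8% had groups apart in either direction. In bulk RNA a difference in the number of expressing cells and one in RNA per cell cannot be told apart.

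**Figure D1:**
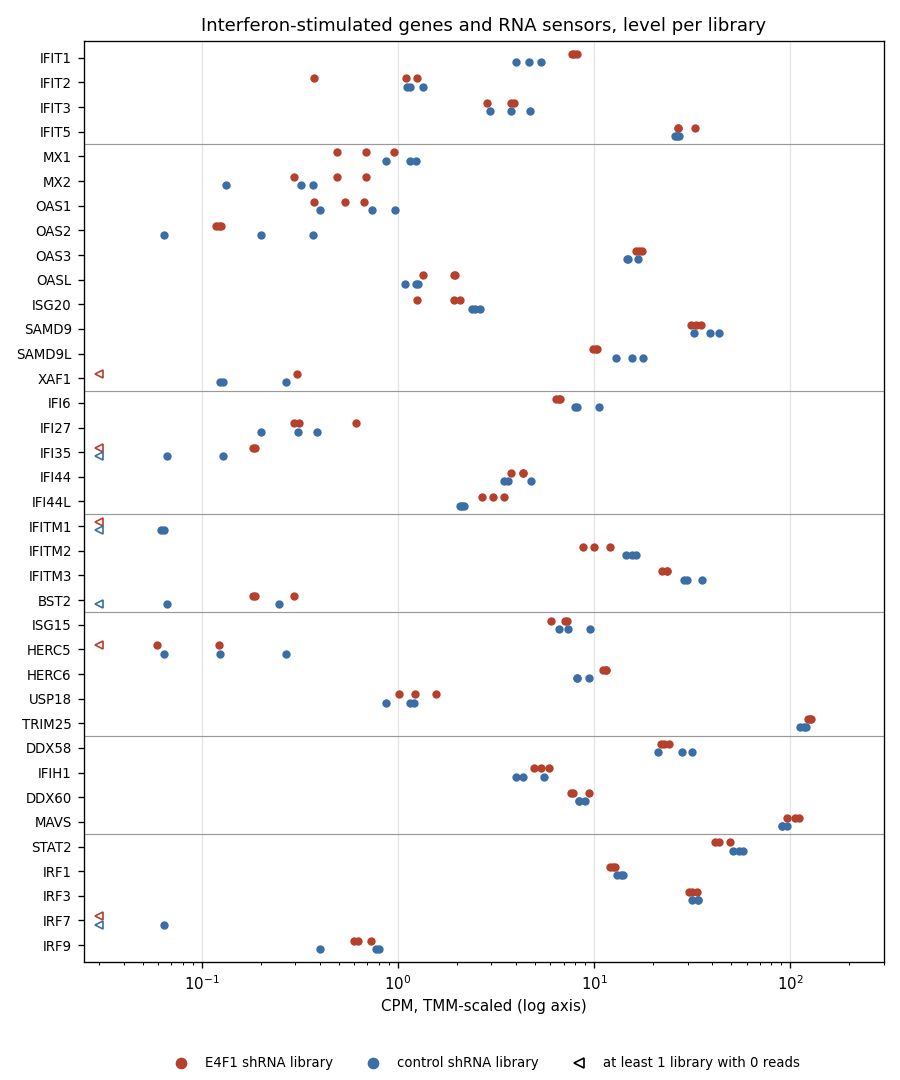
CPM of each of the 37 genes on a log axis, 1 point per library, with E4F1 shRNA above control shRNA for each gene and lines between the groups of genes by role. TRIM25 and MAVS lie near 100 CPM, 9 genes have at most 11 reads in any library, and triangles mark genes with no read in at least 1 library.

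Many genes of the set were near the limit of detection. The 9 genes left untested were MX2, OAS2, XAF1, IFI27, IFI35, IFITM1, BST2, HERC5 and IRF7, which had 0 to 11 reads per library. Interferon is known to raise many of these transcripts, such as BST2, the gene of the virion-tethering protein tetherin. BST2 had 3, 5 and 3 reads in E4F1 shRNA libraries and 1, 4 and 0 reads in control libraries. IRF7, a factor that amplifies interferon production, had no read in E4F1 shRNA libraries and 1 read in control libraries. A count of 0 allows up to 3 reads, which is 0.178 to 0.187 CPM in an E4F1 shRNA library and 0.186 to 0.201 CPM in a control library, for counting error only. Of 13 interferon genes, 11 had no read in any library, IFNB1 among them. IFNE had 3 reads over the E4F1 shRNA libraries and 19 over the control libraries, 11 of them in control library 1, and IFNG had 0 reads over the E4F1 shRNA libraries and 3 over the control libraries.

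Levels per length spanned a wide range. On the scale of CPM per kilobase of annotated exons, IFITM3 reached 17.1 in E4F1 shRNA cells and 23.3 in control cells, and TRIM25 13.2 in E4F1 shRNA cells and 12.3 in control cells. The next in E4F1 shRNA cells were MAVS at 8.87, IRF3 at 8.39, IFI6 at 7.61, STAT2 at 7.32 and ISG15 at 7.27, which in control cells stood at 7.85, 8.72, 10.3, 8.94 and 8.35 in the same order of genes. DDX58 stood at 5.27 in E4F1 shRNA cells and 6.20 in control cells, above IFIH1 at 1.06 in E4F1 shRNA cells and 0.905 in control cells. IFIT2, MX1, OAS1 and IRF9 were at 0.293 or less on this scale in both groups.

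Among the RNA sensors, neither helicase gene passed the test. DDX58 (GRCh38 chromosome 9, 32455705 to 32526324) had 21.9, 22.8 and 24.1 CPM in E4F1 shRNA libraries 1 to 3, against 28.0, 21.3 and 31.6 CPM in control libraries 1 to 3. Control library 2 was the lowest of all 6, and the other controls were the highest. DDX58 had a log2 fold change of −0.23 with an SE of 0.11 (edgeR adjusted p = 0.128), which came to −0.37 without control library 2 (edgeR adjusted p = 0.00141). Leaving out each library in turn, the log2 fold change of DDX58 ran from −0.37 to −0.10.

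IFIH1 had 5.37, 4.94 and 5.92 CPM in E4F1 shRNA libraries, against 4.01, 4.33 and 5.53 CPM in control libraries. The groups overlapped, and the log2 fold change of 0.22 had a 95% interval of −0.11 to 0.56. DDX60, a helicase-like gene reported to assist RIG-I, was at 8.31 ± 0.997 CPM (SD, n = 3) in E4F1 shRNA cells and 8.60 ± 0.375 CPM (SD, n = 3) in control cells.

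MAVS (chromosome 20, 3846799 to 3876123) was higher in E4F1 shRNA cells by a small amount. Its levels were 96.8, 105.9 and 110.5 CPM in E4F1 shRNA libraries and 95.9, 90.4 and 90.9 CPM in control libraries, so that the groups were apart by less than 1 CPM at their nearest libraries. Its log2 fold change came to 0.18 with an SE of 0.060 (edgeR adjusted p = 0.0345). Leaving out control library 3 ended the call (edgeR adjusted p = 0.0849), as did leaving out library 2 or library 3 of the E4F1 shRNA cells (0.120 and 0.131).

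The 4 tested transcription factors downstream of sensors and receptor showed 1 fall, where 14.4% of all genes were lower. STAT2 (chromosome 12, 56341597 to 56360155) had 43.3, 41.5 and 49.4 CPM in E4F1 shRNA libraries, against 55.0, 51.2 and 57.5 CPM in control libraries. Every E4F1 shRNA library lay below every control library. It fell by 0.29 on the log2 scale with an SE of 0.074 (edgeR adjusted p = 0.00755), and the call was lost without E4F1 shRNA library 2 (−0.23, edgeR adjusted p = 0.0702).

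IRF3 had 30.6, 31.5 and 33.4 CPM in E4F1 shRNA libraries and 31.6, 33.8 and 33.9 CPM in control libraries. The groups overlapped, and the 95% interval of the log2 fold change ran from −0.21 to 0.09. IRF1, a factor that interferon gamma induces and that keeps a base level of antiviral genes, was at 12.4 ± 0.317 CPM (SD, n = 3) in E4F1 shRNA cells and 13.6 ± 0.449 CPM (SD, n = 3) in control cells, without overlap but not past the test (edgeR adjusted p = 0.342). IRF9 had only 10, 10 and 12 reads in E4F1 shRNA libraries and 6, 13 and 12 in control libraries. Of its 50-base transcript windows 43.6% also occur in other annotated genes, chiefly AL136295.5, and its counts are uncertain for that reason.

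The IFIT family, RNA-binding proteins that block translation of foreign transcripts, had 1 of its 4 genes past the test. The genes lie near each other on chromosome 10. IFIT1 (89392546 to 89406486) had 126, 138 and 126 reads in E4F1 shRNA libraries, against 80, 75 and 62 reads in control libraries, which is 7.86, 8.21 and 7.69 CPM in E4F1 shRNA libraries against 5.35, 4.64 and 3.98 CPM in control libraries. Its levels did not overlap, and it was 1.70-fold higher in E4F1 shRNA cells, the highest log2 fold change of the 28 genes (0.77, SE 0.14, edgeR adjusted p = 0.000618).

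IFIT3, which binds IFIT1 and stabilizes it, had 3.93, 2.85 and 3.78 CPM in E4F1 shRNA libraries and 2.94, 3.77 and 4.69 CPM in control libraries, with full overlap (log2 −0.12, SE 0.20, edgeR adjusted p = 0.701). IFIT2 had 6, 21 and 18 reads in E4F1 shRNA libraries and 20, 18 and 18 reads in control libraries (log2 −0.39, SE 0.35, edgeR adjusted p = 0.432). IFIT5, the family member with the most reads, was at 28.7 ± 3.31 CPM (SD, n = 3) in E4F1 shRNA cells and 26.4 ± 0.588 CPM (SD, n = 3) in control cells, and did not pass (edgeR adjusted p = 0.316). The rise of IFIT1 was past the test while these 3 were not; whether the members differ from each other was not tested.

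Of the antiviral effectors, only SAMD9L passed among the 7 tested (14.3%), where 28.9% of all genes were called. SAMD9L and its neighbour SAMD9 on chromosome 7 encode antiproliferative proteins that restrict poxviruses. SAMD9L (93130055 to 93148369) had 10.4, 9.93 and 10.2 CPM in E4F1 shRNA libraries, against 15.6, 12.9 and 17.9 CPM in control libraries. The 3 E4F1 shRNA libraries lay close together and below all controls, a 1.52-fold lower level (log2 −0.60, SE 0.12, edgeR adjusted p = 0.00109). SAMD9 was at 35.0, 33.0 and 31.4 CPM in E4F1 shRNA libraries and 39.2, 32.2 and 43.3 CPM in control libraries. Control library 2 fell inside the range of the E4F1 shRNA libraries, and the log2 fold change of −0.21 (edgeR adjusted p = 0.104) came to −0.31 without that library (edgeR adjusted p = 0.00275). Without control library 3 the log2 fold change of SAMD9 came to −0.11 (edgeR adjusted p = 0.441).

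The OAS genes encode enzymes that make oligoadenylates in response to double-stranded RNA, and OASL a relative without that activity. OAS3 had the most reads, at 16.97 ± 0.548 CPM (SD, n = 3) in E4F1 shRNA cells and 15.4 ± 1.11 CPM (SD, n = 3) in control cells (edgeR adjusted p = 0.291). OASL had 31, 33 and 22 reads in E4F1 shRNA libraries and 19, 20 and 17 in control libraries, without overlap but not past the test (log2 0.54, SE 0.26, edgeR adjusted p = 0.129). OAS1 had 6, 9 and 11 reads in E4F1 shRNA libraries and 6, 12 and 15 in control libraries.

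MX1, a dynamin-like GTPase that is a common readout of interferon action, had 11, 16 and 8 reads in E4F1 shRNA libraries and 13, 20 and 18 in control libraries (log2 −0.61, SE 0.33, edgeR adjusted p = 0.177). These counts leave a 95% interval of −1.31 to 0.08. ISG20, an exonuclease gene, had 31, 21 and 34 reads in E4F1 shRNA libraries and 39, 40 and 37 in control libraries, again without overlap and not past the test (edgeR adjusted p = 0.105).

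**Figure D2:**
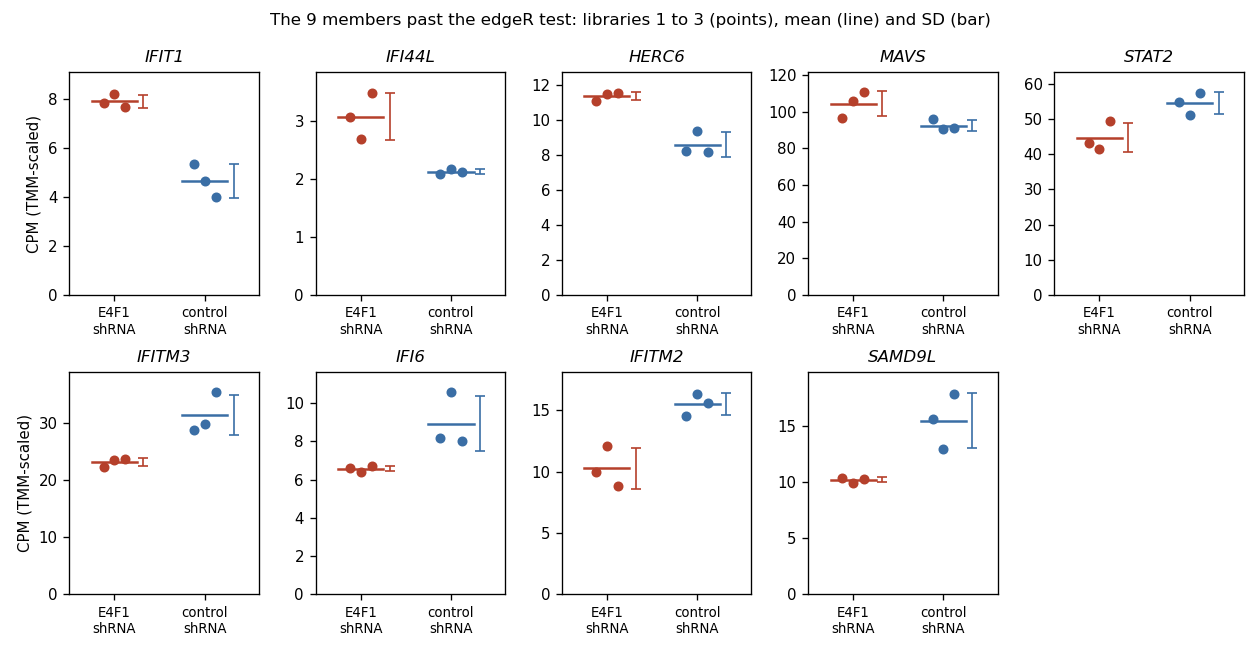
CPM of the 9 genes past the test in each library on axes that start at 0, with E4F1 shRNA left of control shRNA, the mean as a line and the SD as a bar beside it. IFIT1 sits between 7.69 and 8.21 CPM in E4F1 shRNA cells and SAMD9L between 9.93 and 10.4 CPM, while the groups of MAVS nearly touch.

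Of the 4 membrane restriction factors, the 2 tested fell, and IFITM1 and BST2 had too few reads to test. Over all genes, 14.4% were lower. IFITM2 and IFITM3 encode small proteins that block the fusion of enveloped viruses with endosomes. IFITM3 (chromosome 11, 319669 to 327537) had 22.3, 23.4 and 23.6 CPM in E4F1 shRNA libraries, against 28.8, 29.8 and 35.4 CPM in control libraries, a 1.36-fold lower level without overlap (log2 −0.44, SE 0.09, edgeR adjusted p = 0.00108). IFITM2 (chromosome 11, 307631 to 315272) had 9.98, 12.1 and 8.79 CPM in E4F1 shRNA libraries, against 14.5, 16.3 and 15.6 CPM in control libraries. It too was lower in every E4F1 shRNA library (log2 −0.59, SE 0.12, edgeR adjusted p = 0.00115). These genes are close copies of each other: 34.1% of the 50-base windows of IFITM2 and 17.4% of those of IFITM3 occur in another annotated gene, chiefly each other and IFITM1. IFITM1 lies within the annotated span of IFITM2 on the same strand (313506 to 315272) and had 0 reads in E4F1 shRNA libraries and 2 in control libraries, a count that reads set aside as ambiguous could lower.

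Of the 3 IFI genes tested, 1 fell and 1 rose, where 28.9% of all genes were called in either direction. IFI6, the gene of a small membrane protein that opposes apoptosis, had 6.61, 6.42 and 6.71 CPM in E4F1 shRNA libraries, against 8.16, 10.6 and 8.04 CPM in control libraries (log2 −0.44, SE 0.13, edgeR adjusted p = 0.0191). Control library 2 was the highest, and without it the log2 fold change was −0.29 and not past the test (edgeR adjusted p = 0.108). Leaving out library 1 or library 2 of the E4F1 shRNA cells also ended the call (edgeR adjusted p = 0.0556 and 0.0729).

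IFI44L had 49, 45 and 57 reads in E4F1 shRNA libraries, against 31, 35 and 33 reads in control libraries. Its groups did not overlap (log2 0.53, SE 0.20), but its edgeR adjusted p of 0.0496 lay next to the threshold, and the call was lost in 10 of 14 alternatives, with adjusted p from 0.0382 to 0.153 over all of them. Its neighbour IFI44 was at 4.16 ± 0.330 CPM (SD, n = 3) in E4F1 shRNA cells and 3.96 ± 0.693 CPM (SD, n = 3) in control cells.

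ISG15 is a ubiquitin-like protein that is attached to other proteins after interferon. It had 6.05, 7.32 and 7.14 CPM in E4F1 shRNA libraries and 7.36, 6.62 and 9.58 CPM in control libraries, with overlap, and the 95% interval of its log2 fold change was −0.51 to 0.11. HERC6, the main ligase for it in the mouse, was higher in E4F1 shRNA cells, with 11.1, 11.5 and 11.5 CPM against 8.23, 9.40 and 8.16 CPM in control libraries. No library overlapped (log2 0.40, SE 0.11, edgeR adjusted p = 0.0106). HERC5, the main ligase in human cells, had 0, 1 and 2 reads in E4F1 shRNA libraries and 4, 2 and 1 in control libraries.

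USP18 removes ISG15 and dampens receptor signalling. It had 25, 17 and 20 reads in E4F1 shRNA libraries and 18, 14 and 18 in control libraries (edgeR adjusted p = 0.583), and 23.4% of its 50-base windows occur in other annotated genes, chiefly USP41. TRIM25, a ubiquitin ligase that acts on RIG-I, was at 125.7 ± 2.16 CPM (SD, n = 3) in E4F1 shRNA cells and 116.7 ± 3.74 CPM (SD, n = 3) in control cells, without overlap and not past the test (log2 0.11, SE 0.05, edgeR adjusted p = 0.137).

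**Figure D3:**
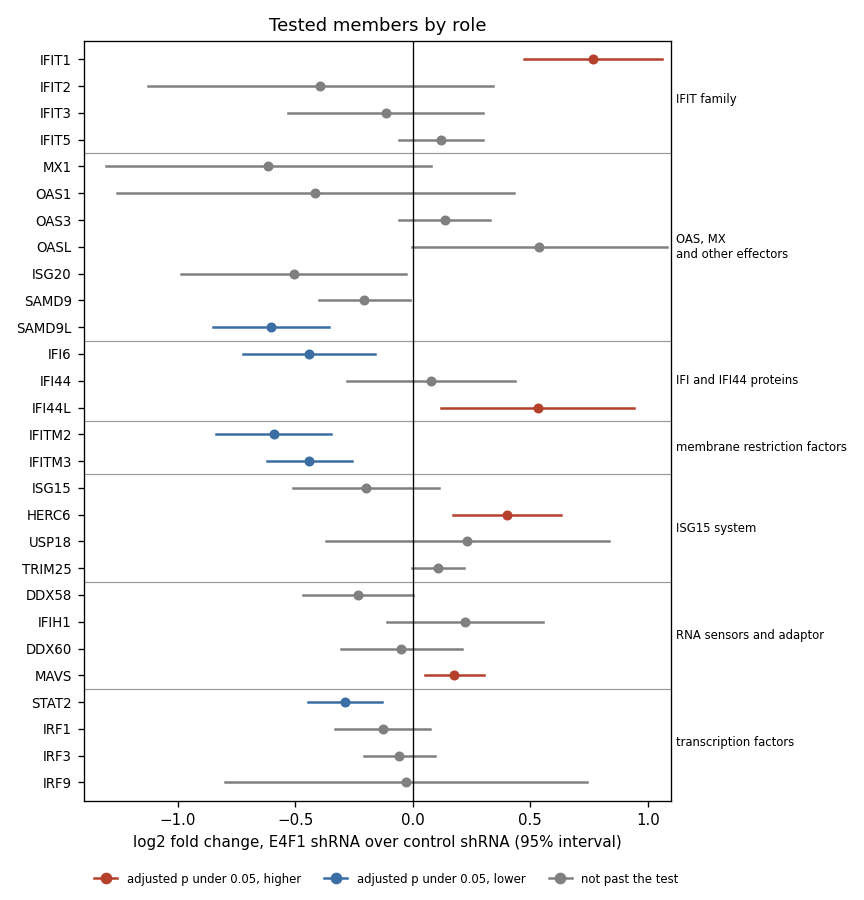
Log2 fold change of the 28 tested genes, E4F1 shRNA over control shRNA, with its 95% interval, grouped by role. The 2 tested membrane restriction factors, IFITM2 and IFITM3, are both lower, where 14.4% of all genes were lower. These 2 genes share part of their transcript sequence. The intervals of IFIT2, MX1, OAS1 and IRF9 are wide.

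The calls of IFIT1, SAMD9L, IFITM2, IFITM3 and HERC6 held in direction and threshold in all 14 alternatives, which changed the scaling, the filter, the tool, the strand or the libraries. Their highest adjusted p by any of the tools over these was 0.00588, 0.0106, 0.0103, 0.00876 and 0.0418. By library, the median deviation of the 28 genes from the mean of the 6 libraries was −0.06, −0.04 and 0.02 on the log2 scale in E4F1 shRNA libraries 1 to 3, and 0.01, 0.02 and 0.11 in control libraries 1 to 3. The medians of the groups overlap.

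**Figure D4:**
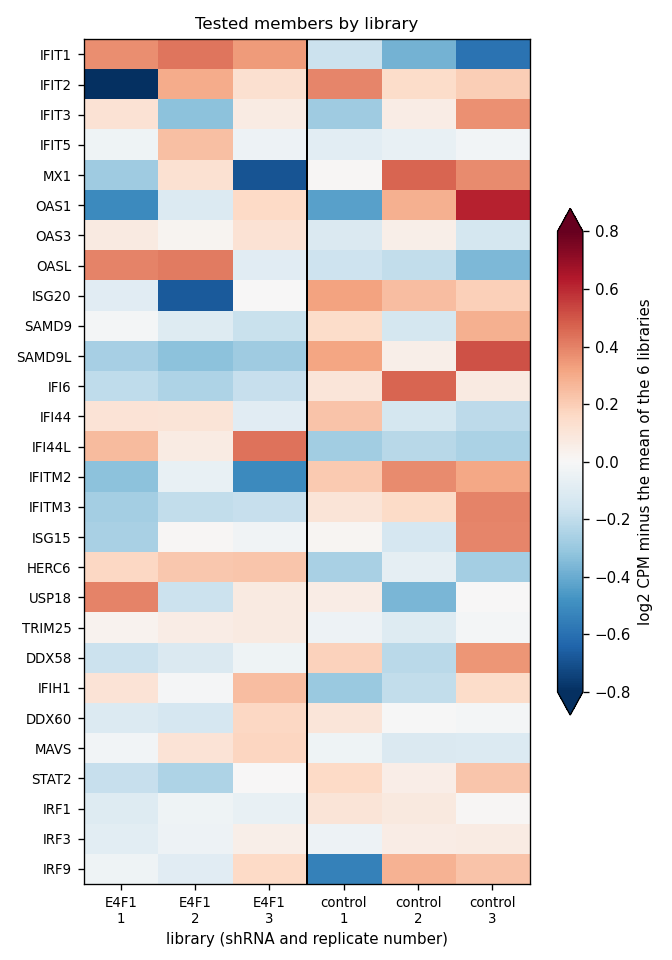
Log2 CPM of each tested gene in each library minus its mean over the 6 libraries, E4F1 shRNA libraries left and control libraries right of the line. DDX58 and SAMD9 are lower in control library 2 than in controls 1 and 3, and IFIT1 is the reverse of SAMD9L across the groups.

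The pathway around these genes was read from 7 lists with 127 entries. Of 16 genes of interferon receptors, JAK-STAT signalling and feedback, 3 rose (18.8%) and 5 fell (31.2%), where 14.4% of all genes were called in each direction. The median log2 fold change was 0.05. IFNAR1, a subunit of the type I receptor, was at 100.6 ± 2.07 CPM (SD, n = 3) in E4F1 shRNA cells and 90.6 ± 5.07 CPM (SD, n = 3) in control cells, and just missed the threshold (edgeR adjusted p = 0.0567). Among negative regulators, the phosphatase gene PTPN2 rose (log2 0.39), while the suppressor SOCS3 (log2 −0.61) and the phosphatase gene PTPN1 (log2 −0.29) fell. SOCS1 (log2 0.64, edgeR adjusted p = 0.111) and PIAS1 (log2 0.11, edgeR adjusted p = 0.176) were higher without overlap but did not pass. SOCS1 had 11 to 25 reads per library, and SOCS1 and PIAS1 were named after their values were seen. The 8 calls of this list came to 5 without control library 1 and also without control library 3, to 3 without E4F1 shRNA library 1, and to 4 without E4F1 shRNA library 2.

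Of 13 genes of other RNA sensors and effectors that bind double-stranded RNA, 9 were tested and 3 rose, with a median of 0.05. Over all genes, 14.4% were higher. None of the 9 fell, so 33.3% were called in either direction, near the 28.9% of all genes. EIF2AK2, the gene of the kinase PKR that stops translation on double-stranded RNA, had 150.5, 150.0 and 146.1 CPM in E4F1 shRNA libraries, against 110.7, 124.9 and 104.3 CPM in control libraries. No library overlapped (log2 0.39, SE 0.06, edgeR adjusted p = 0.000185). ADAR, which edits double-stranded RNA and so hides it from sensors, had 367.7, 373.4 and 366.5 CPM in E4F1 shRNA libraries, against 298.6, 310.8 and 290.9 CPM in control libraries (log2 0.30, SE 0.05, edgeR adjusted p = 0.000304). PRKRA, an activator of PKR, was at log2 0.18 (edgeR adjusted p = 0.0449). DHX58, TLR7, TLR8 and ZBP1 were too low to test.

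Of 15 adaptors, kinases and factors below the sensors tested out of 16, 2 rose (SIKE1 and AZI2, log2 0.21 and 0.20) and 3 fell (TBKBP1, IKBKE and NFKB1, log2 −0.48, −0.36 and −0.17). That is 33.3% called, near the 28.9% of all genes. The median was −0.11, and these 5 calls came to 3 without any single library other than control library 2. Of 7 genes of cytosolic DNA sensing tested out of 9, CGAS (log2 0.37) and SAMHD1 (log2 0.26) rose, and IFI16 (log2 −0.37) and ZDHHC1 (log2 −0.81) fell, with a median of −0.0079. These 4 are 57.1% of the 7, where 28.9% of all genes were called in either direction. IKBKE, NFKB1 and SAMHD1 were named after their values were seen. The groups of IKBKE overlapped, and its edgeR adjusted p was 0.0410.

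A wider list of 45 interferon-stimulated genes had 35 tested, of which 2 rose (APOL6 and PNPT1, named after their values were seen) and 14 fell, with a median log2 fold change of −0.13. That is 5.71% higher and 40.0% lower, where 14.4% of all genes were called in each direction. PNPT1 lay next to the threshold (edgeR adjusted p = 0.0493), and its groups overlapped, while those of APOL6 did not. APOL1, an apolipoprotein gene, was at 9.04 ± 1.47 CPM (SD, n = 3) in E4F1 shRNA cells and 14.5 ± 0.335 CPM (SD, n = 3) in control cells. SP110, a nuclear body gene, was at 18.7 ± 1.76 CPM in E4F1 shRNA cells and 28.2 ± 4.42 CPM in control cells (SD, n = 3 each). DTX3L, a ubiquitin ligase gene, was at 54.2 ± 1.28 CPM in E4F1 shRNA cells and 67.4 ± 2.68 CPM in control cells (SD, n = 3 each). The same promoter core stood in 23 of 36 windows of this list.

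Genes of class I antigen presentation, which interferon also induces, had the lowest median of the lists tested, at −0.24. Of 15 tested, 9 fell and 6 did not pass, where 14.4% of all genes were lower. Of the log2 fold changes, 12 were negative and 3 positive. TAP2 (log2 0.16, edgeR adjusted p = 0.159) and ERAP1 (log2 0.14, edgeR adjusted p = 0.114), named after their values were seen, were higher without overlap but did not pass. TAPBP, the gene of tapasin, which loads peptides, had 88.2, 90.6 and 96.2 CPM in E4F1 shRNA libraries, against 112.1, 105.3 and 119.7 CPM in control libraries (log2 −0.29, SE 0.06, edgeR adjusted p = 0.0016). TAP1, a subunit of the peptide transporter, had 500, 538 and 620 reads in E4F1 shRNA libraries, against 738, 607 and 832 reads in control libraries, with E4F1 shRNA library 3 just above control library 2 (log2 −0.47, edgeR adjusted p = 0.0031). HLA-E was at log2 −0.31 without overlap. The count of 9 came to 5 without control library 1 and to 4 without E4F1 shRNA library 1.

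**Figure D5:**
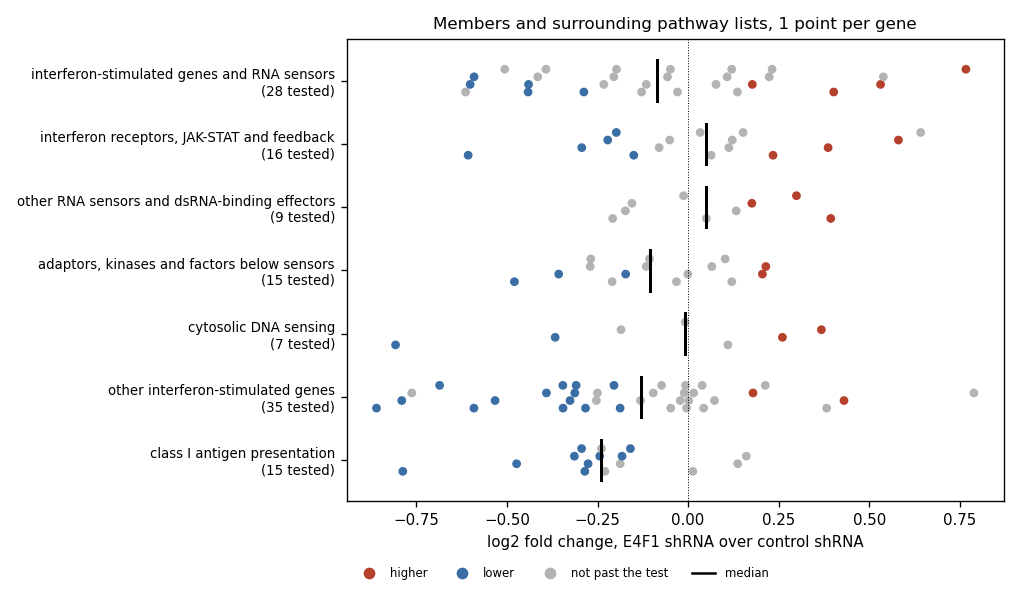
Log2 fold change of each tested gene, E4F1 shRNA over control shRNA, for the members and for each surrounding list, with the median as a bar. The members scatter from −0.61 to 0.77, and the class I list has its median at −0.24.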

How the data were processed

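RNA sequencing libraries of U2OS cells, 3 with an shRNA against E4F1 and 3 with a scramble shRNA, were compared. Each library came with a deposited table of raw read counts for every gene, unnormalized, as STAR writes them. The submitters' processing notes name bcl2fastq 2.20, STAR 2.5.1b and the build GRCh38. Annotation release: not given in the sources used here. Reverse-strand counts were used, since that column held most reads. Lines that name no gene (27.1% to 31.7% of a table) were left out. Symbols and coordinates (1-based) came from GENCODE 29, which matched 57836 of 58219 identifiers.

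Counts were tested with edgeR 4.0.16 in R 4.3.3: filterByExpr, TMM scaling, quasi-likelihood F-test, two-sided, group as the only term, Benjamini-Hochberg adjustment over 15765 genes, threshold 0.05. CPM are TMM-scaled. For a single value, 3 against 3 libraries allow no exact permutation p below 0.1. The p-values measure the spread between 3 pools per group. Alternatives were DESeq2 1.42.0, its size factors, library totals, limma-voom (limma 3.58.1), a model with a replicate block, no filter, a stricter filter of 1 CPM, counts ignoring strand, and leaving out each library. Members and lists were chosen with earlier results of these data known. Genes were named by role, by a fixed list, or as the 3 smallest adjusted p per list. The steps were tested on simulated data. Some results are not reported here.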

Additional observations from a re-analysis of the deposited data

How the results depend on the processing

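Among the 28 tested genes and their alternatives, 358 of 388 values kept their direction and side of the threshold, 17 lost and 2 gained the call, and 11 changed sign. The sign changes were in genes that did not pass: IRF9 came to 0.023 with limma-voom, 0.015 ignoring strand and −0.26 to 0.15 leaving out single libraries, IFIT3 to −0.25 to 0.0605, IFI44 to −0.0079 to 0.24 and DDX60 to −0.15 to 0.01. Leaving out single libraries, the members called numbered 2 to 3 higher and 3 to 6 lower (4 and 5 with all): 2 were higher without the third control or without the second or the third E4F1 shRNA library, and 3 were lower without the second E4F1 shRNA library. Called genes in all came to 1605 to 2833 higher and 1419 to 2537 lower (2274 and 2276 with all), with 1503 lower without the third control, 1419 without the first and 1426 without the second E4F1 shRNA library. The counts called were 3 to 7 for receptors and JAK-STAT, 3 to 5 for adaptors and kinases, 2 to 4 for other RNA sensors, 3 to 4 for DNA sensing, 11 to 19 for other interferon-stimulated genes and 4 to 9 for class I. The adaptor count was 3, against 5, with library totals or DESeq2. The E4F1 log2 fold change ran from −2.63 to −2.45. The causes were not tested.

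The labels do not say whether a shared replicate number pairs the libraries. Same-numbered deviations correlated at 0.007, 0.047 and 0.048, and different-numbered ones at −0.108 to 0.077. With 3 libraries per group these values cannot decide whether the libraries were paired. With the replicate block, 2419 genes were higher and 2446 lower, and the members called were 3 and 5, IFI44L being lost (adjusted p = 0.0577). At the 6 to 21 reads per library of IFIT2, MX1, OAS1 and IRF9 the depth leaves intervals over 1 log2 unit wide.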

Other observations

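Most class I genes ordered the control libraries alike. Control library 2 was the lowest control for 13 of 15 of them, against 5448 of 15765 genes tested (34.6%), and the order of library 3 over 1 over 2 held for 11 of 15, against 20.5% of all genes. For the 28 interferon-stimulated genes and RNA sensors these counts were 9 and 6. In the wider list of interferon-stimulated genes they were 18 (51.4%) and 9 (25.7%) of 35 tested. The pattern was seen in the values and then counted.

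TREX1 and TRIM34, genes of the pathway, are read poorly by these tables. They had no read in any library, and 84.1% and 83.1% of their 50-base windows occur in other annotated genes, ATRIP and TRIM6-TRIM34 first. IRF7 shared no such window with another gene. On its own strand IRF7 had 0 reads in E4F1 shRNA and 1 in control libraries, and on the opposite strand 23 and 24 reads.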
